A study of Mus musculus with 4 samples.

Results

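Sonic hedgehog signalling was described through 9 genes chosen by name from textbook knowledge of the pathway: the ligand gene Shh, the receptor and antagonist genes Ptch1, Hhip and Boc, the transducer gene Smo, the inhibitor gene Sufu, and the transcription factor genes Gli1, Gli2 and Gli3. The choice was made with earlier results of these data known. All 9 are among the 55421 genes listed in each library. The libraries came from the prefrontal cortex (PFC) of wild-type C57BL/6 mice at postnatal day 0, dissociated to single cells and kept for 10 days in neurobasal medium with B27, and each was made from the RNA of a whole culture. FGF2 (fibroblast growth factor 2) was added at 5 ng/mL in 2 libraries, called FGF2 1 and FGF2 2 here, and was left out in the other 2, called no FGF2 1 and no FGF2 2. The labels and methods name no other difference between the groups. Dissociated cultures hold neurons, glia and progenitors together, without the layers and inputs of the tissue. The methods of the study give technical replicates for samples other than the human GW11 and GW20 ones, so the spread between libraries, and every p-value built on it, may be technical only.

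In the Hedgehog pathway a secreted ligand binds the membrane protein Patched (Ptch1), which otherwise keeps the membrane protein Smoothened (Smo) inactive. Released Smo moves into the primary cilium, and the Gli proteins are then freed from Sufu and from the kinases that turn them into repressors, so that they switch on target genes. Ptch1, Gli1 and Hhip are themselves targets, which is why their transcripts are widely used to read the activity of the pathway. In the forebrain Shh patterns the ventral domains that give rise to interneurons and early oligodendrocyte precursors, and later it acts on neural stem cells, astrocytes and synapses.

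The target genes Ptch1 and Hhip are shown here by the promoter sequence of their RefSeq model (GRCm38.p6, 250 bases before to 50 bases after the transcription start, minus strand, written 5′ to 3′), because the readings of pathway activity turn on them. Capitals mark the core CCACCC of the Gli binding motif, where it occurs on either strand. The Hhip window is chr8:80057959-80058258 and the Ptch1 window is chr13:63565686-63565985, whose transcription start lies 7863 bases inside the gene start of GENCODE M21.
Hhip promoter: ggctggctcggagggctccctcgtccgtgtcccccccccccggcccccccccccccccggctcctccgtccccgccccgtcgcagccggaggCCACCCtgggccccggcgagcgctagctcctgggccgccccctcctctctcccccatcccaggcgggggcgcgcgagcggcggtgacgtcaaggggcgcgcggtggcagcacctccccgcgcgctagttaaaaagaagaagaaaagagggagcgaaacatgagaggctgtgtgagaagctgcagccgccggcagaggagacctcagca
Ptch1 promoter: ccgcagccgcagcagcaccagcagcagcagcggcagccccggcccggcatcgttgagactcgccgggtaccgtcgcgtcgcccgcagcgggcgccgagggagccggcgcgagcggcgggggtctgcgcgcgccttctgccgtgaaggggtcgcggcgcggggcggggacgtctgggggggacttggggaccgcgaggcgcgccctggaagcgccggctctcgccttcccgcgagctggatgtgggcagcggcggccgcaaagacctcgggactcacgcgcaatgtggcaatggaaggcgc
The Hhip window holds 1 core, which begins 158 bases before the start, and the Ptch1 window holds none. RefSeq promoters were matched for 6 of the 9 genes, Gli2, Gli3, Hhip, Ptch1, Smo and Sufu, and Shh, Gli1 and Boc were not matched. The full motif GACCACCCA, which contains the core, was searched on both strands and was in 0 of these 6 windows, beside 0.253% of the 32851 promoters of the table. The core CCACCC was in 4 of the 6 (Gli2, Gli3, Hhip and Smo), beside 31.5% of all promoters. GC content was 73.7% in the Hhip window and 76.3% in the Ptch1 window, and the median promoter had 52.7%. A match describes letters in a window of 300 bases and is not evidence of binding.

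Counts on genes totalled 9166432 to 10799886 per library, so that 3 counts, taken here as the lower limit of detection, correspond to 0.276 to 0.330 CPM (counts divided by the library total, adjusted by its TMM factor). FGF feedback genes such as Spry4 (log2 fold change 1.04) and Etv5 (0.47) were called higher with FGF2 in 6 of 7 cases, and Etv4 was called lower (-0.63). Of the 17144 genes that passed the expression filter, 6949 were called by edgeR at an adjusted p below 0.05, which is a background of 40.5%, with 20.7% of genes higher and 19.9% lower with FGF2. The median log2 fold change of all genes tested was -0.00082.

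Among the 9 pathway genes, Boc and Gli3 RNA were higher with FGF2, while Ptch1, Smo, Sufu, Gli2 and Hhip did not pass the test. Shh was called lower at 14 counts or fewer per library, a call that was lost without any 1 of 3 of the 4 libraries. Gli1 was at the limit of detection in every library and was not tested. Thus 3 of the 8 genes tested were called, or 37.5%, beside the background of 40.5%. Higher calls numbered 2 of 8, against a background of 20.7%. The 1 lower call, beside a background of 19.9%, was Shh, which passed the filter only through the libraries without FGF2, so nothing is read from it or from a total that includes it. Of the other 7 genes tested, 2 were called, both higher. The median log2 fold change of the 8 genes, Shh included, was 0.13. Leaving out the library no FGF2 1 lowered the number called from 3 to 1.

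**Figure D1:**
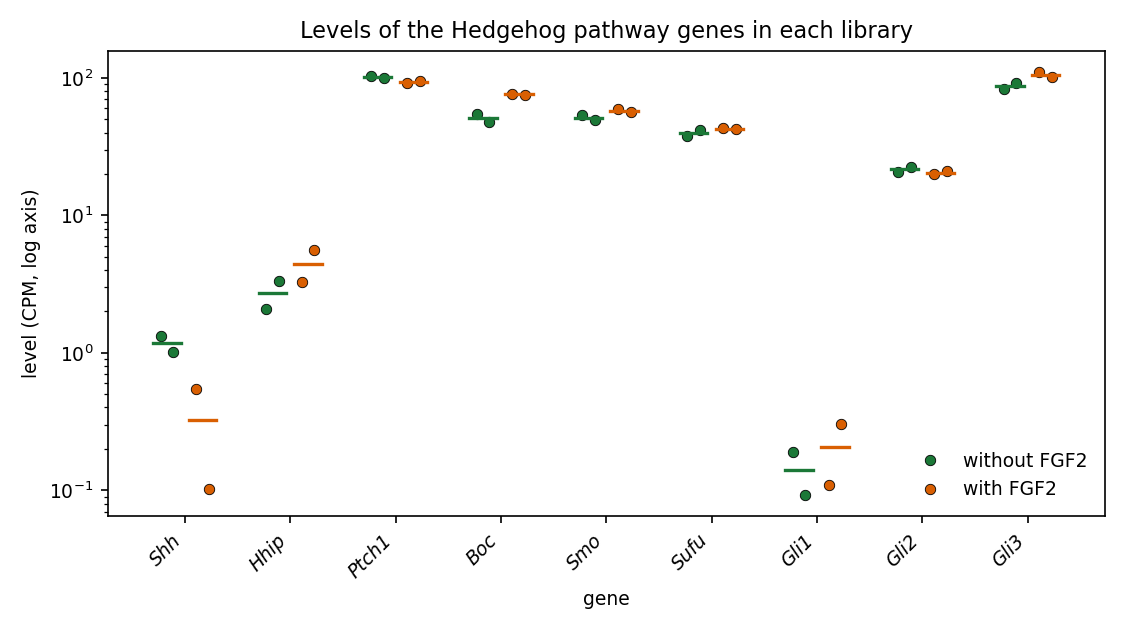
Level of each of the 9 Hedgehog pathway genes (horizontal axis) in CPM on a log axis (vertical axis), with 1 point per library and a line at the mean of each group of 2. Boc and Gli3 sit higher in both libraries with FGF2, Shh sits lower, and Gli1 lies at 0.0921 to 0.304 CPM in all 4 libraries.

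Shh (ENSMUSG00000002633, chr5:28456815-28467256, minus strand, mm10) encodes the secreted ligand. It had 5 and 1 counts in the FGF2 libraries and 14 and 11 in the others, or 0.550 and 0.101 CPM against 1.33 and 1.01 CPM. Both libraries with FGF2 lay below both without, and the library FGF2 2 was under the 3-count limit. The ratio of the summed counts was 0.268, with an exact 95% interval of 0.0898 to 0.668 that covers counting error only. The log2 fold change was -1.84 ± 0.74 (SE, edgeR adjusted p = 0.0332). Because a gene this low passes the filter only where 1 group is high, its call is given as a description. The call was lost without FGF2 2 (log2 fold change -1.07, edgeR adjusted p = 0.334), without no FGF2 1 (-1.64, 0.160) and without no FGF2 2 (-2.02, 0.0501), and without FGF2 1 the value was -3.38. It was also lost without the expression filter (edgeR adjusted p = 0.0797).

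The exons of Shh share 446 bases with the antisense gene 9530036O11Rik, which had 1 and 6 counts in the FGF2 libraries and 3 and 9 in the others. Since the strand setting of the counting is not given in the sources used here, reads from these shared bases cannot be assigned with certainty. The related ligand genes were lower still. Ihh, which encodes Indian hedgehog, had 2 and 1 counts in the FGF2 libraries and 0 and 1 in the others. Dhh, the Desert hedgehog gene, had 3 and 0 counts in the FGF2 libraries and 2 and 0 in the others. Its exons share 546 bases with the same-strand gene Rhebl1, which had 55 to 77 counts, and 1107 bases with the antisense gene Gm49442. Reads from these bases of Dhh cannot be assigned with certainty either, so its low counts are less firm. No ligand gene had more than 14 counts in any library.

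Release of the ligand from the cell needs Hhat, which attaches a fatty acid, Disp1, which moves the ligand out of the membrane, and the secreted Scube proteins. Of the 5 ligand and release genes tested beside Shh, Scube3 was called higher with FGF2 and Scube1 lower (40% called, beside 40.5%), and the other 3 were not called. Scube3 measured 43.6 and 46.3 CPM with FGF2 and 26.6 and 33.9 CPM without (log2 fold change 0.57 ± 0.10 SE, edgeR adjusted p = 1.60e-07). Its exons share 198 bases with the opposite-strand gene AC126937.2, which had 81 to 130 counts. Scube1 moved the other way, from 23.4 and 22.3 CPM without FGF2 to 15.8 and 15.3 CPM with it (-0.55 ± 0.14, edgeR adjusted p = 2.88e-04). Disp1 measured 15.8 and 14.0 CPM with FGF2 and 15.2 and 15.4 CPM without, and its groups overlapped.

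Ptch1 (ENSMUSG00000021466, chr13:63508328-63573598, minus strand) encodes the receptor that restrains Smo and is a target of the pathway. It measured 91.3 and 95.3 CPM with FGF2 and 104.0 and 99.9 CPM without. Both libraries with FGF2 lay below both without, by a small step. The log2 fold change was -0.13 ± 0.07 (SE), with a 95% interval of -0.26 to 0.0043, and it did not pass the test (edgeR adjusted p = 0.121). The interval, which is not adjusted for the number of genes, leaves room for a fall of up to 0.26 and a rise of up to 0.0043. Ptch1 shares stretches of 101 to 148 bases at 95.2% to 96.0% identity with Dusp22, Rhno1 and Gm27896, a small part of its 14185 exonic bases.

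Hhip (ENSMUSG00000064325, chr8:79965851-80058006, minus strand) encodes a membrane protein that binds and sequesters the ligand, and it is a target gene as well. Its counts were low, 30 and 55 in the FGF2 libraries and 22 and 36 in the others, or 3.30 and 5.58 CPM against 2.09 and 3.32 CPM. The groups overlapped, since FGF2 1 lay just below no FGF2 2. The log2 fold change was 0.72 ± 0.32 (SE, 95% interval 0.083 to 1.35, edgeR adjusted p = 0.0631). This side of the threshold rested on single libraries: without FGF2 1 the value was 1.03 (edgeR adjusted p = 0.0125) and without no FGF2 2 it was 1.09 (0.0444). Without FGF2 2 it was 0.28 (edgeR adjusted p = 0.650) and without no FGF2 1 it was 0.43 (0.459).

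The target genes Ptch1 and Hhip thus had log2 fold changes of -0.13 and 0.72, neither past the test, and the difference between them was not tested. Gli1, the other widely used target, was too low to test.

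Boc (ENSMUSG00000022687, chr16:44485049-44558897, minus strand) encodes a co-receptor that holds the ligand at the cell surface together with Ptch1, and in the cortex it is known from neurons that receive Shh. It measured 76.7 and 74.8 CPM with FGF2 and 55.1 and 47.8 CPM without, or 75.8 ± 1.34 against 51.4 ± 5.12 (mean ± SD, n = 2 libraries). The groups were well apart, with the lowest library with FGF2 above the highest without. The log2 fold change was 0.56 ± 0.08 (SE), or 1.47-fold, with an edgeR adjusted p of 4.62e-11. With any 1 library left out the value stayed between 0.46 and 0.66, and the highest edgeR adjusted p was 7.52e-05.

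The 2 other co-receptors did not follow one course. Gas1, a co-receptor anchored to the membrane by a lipid, measured 52.8 and 50.6 CPM with FGF2 and 22.1 and 24.7 CPM without, a rise of 1.14 ± 0.10 on the log2 scale (SE, 2.21-fold, edgeR adjusted p = 3.21e-26). Gas1 shares 589 exonic bases with the opposite-strand gene Gm48488, which had 8 and 9 counts in the FGF2 libraries and 21 and 16 in the others. Cdon, the closest relative of Boc, measured 79.9 and 85.0 CPM with FGF2 and 80.6 and 92.1 CPM without, and its groups overlapped (-0.07, 95% interval -0.21 to 0.073, edgeR adjusted p = 0.494). Lrp2, a large endocytic receptor that also binds Shh, fell from 36.6 and 35.4 CPM to 25.9 and 23.2 CPM with FGF2 (-0.55 ± 0.11, edgeR adjusted p = 7.20e-06).

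Smo (ENSMUSG00000001761, chr6:29735503-29761365, plus strand) encodes the transducer that Ptch1 holds in check. It measured 59.2 and 56.5 CPM with FGF2 and 53.8 and 49.0 CPM without. The groups did not overlap, and the log2 fold change of 0.17 ± 0.09 (SE, 95% interval 0.0025 to 0.34) did not pass the test (edgeR adjusted p = 0.101). Smo shares a stretch of 339 bases at 97.9% identity with Gm4066, which had 0 counts in every library. Sufu (ENSMUSG00000025231, chr19:46396896-46488804, plus strand), the inhibitor that holds Gli proteins in the cytoplasm, measured 42.9 and 42.7 CPM with FGF2 and 37.9 and 42.0 CPM without. Its difference of 0.10 ± 0.10 (SE, 95% interval -0.09 to 0.29, edgeR adjusted p = 0.453) was within the spread of the libraries without FGF2.

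Gli3 (ENSMUSG00000021318, chr13:15463235-15730026, plus strand) encodes the Gli factor that acts mainly as a repressor when no ligand is present. It measured 110.6 and 100.8 CPM with FGF2 and 82.9 and 92.6 CPM without, or 105.7 ± 6.92 against 87.7 ± 6.87 (mean ± SD, n = 2 libraries). The groups did not overlap, although each spread over about 10 CPM. The log2 fold change was 0.27 ± 0.07 (SE, 1.20-fold, edgeR adjusted p = 3.20e-04). Without the library no FGF2 1 it was 0.19 and was no longer called (edgeR adjusted p = 0.0924). Gli3 shares 188 exonic bases with the opposite-strand gene Gm6556, which had 14 to 20 counts.

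Gli2 (ENSMUSG00000048402, chr1:118834132-119053619, minus strand), the main activator among the Gli factors, measured 19.9 and 20.9 CPM with FGF2 and 20.8 and 22.6 CPM without. The groups overlapped, and the interval of the log2 fold change ran from -0.35 to 0.17 (estimate -0.09 ± 0.13 SE, edgeR adjusted p = 0.644). Gli1 (ENSMUSG00000025407, chr10:127329882-127341974, minus strand), which is activated by the pathway and in turn strengthens it, had 1 and 3 counts in the FGF2 libraries and 2 and 1 in the others. All 4 libraries were at or under 3 counts, so a difference in Gli1 was not detectable at this depth and no fold is given. Part of Gli1, 265 exonic bases, is shared with the antisense gene Gm47200, which had 2 counts in no FGF2 2 and 0 in the other libraries.

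Levels can be set against each other only per length, so CPM was divided by exonic length in kilobases to give RPKM. With FGF2 the order was Boc (17.0 ± 0.30 RPKM, SD over 2 libraries), Gli3 (11.0 ± 0.72), Smo (10.3 ± 0.35), Ptch1 (6.58 ± 0.20), Sufu (5.56 ± 0.016), Gli2 (2.97 ± 0.10), Hhip (0.489 ± 0.18), Shh (0.114 ± 0.11) and Gli1 (0.0415 ± 0.028). Gli3 and Smo overlapped, as did Shh and Gli1, and all other neighbours were separate. Without FGF2 the order was Boc (11.6 ± 1.15), Gli3 (9.15 ± 0.72), Smo (9.15 ± 0.61), Ptch1 (7.19 ± 0.21), Sufu (5.19 ± 0.38), Gli2 (3.16 ± 0.18), Shh (0.411 ± 0.078), Hhip (0.298 ± 0.096) and Gli1 (0.0282 ± 0.014). Here Gli3 and Smo overlapped, and so did Shh and Hhip. Shh, Hhip and Gli1 were thus at the bottom of the order in both groups. Over all 4 libraries Boc lay at percentile 79.2 of the genes tested, Gli3 at 69.6, Smo at 68.6, Ptch1 at 58.2, Sufu at 50.5, Gli2 at 35.5, Hhip at 3.80 and Shh at 1.59.

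The order depends on the length used. With the longest transcript in place of all exons, a setting chosen after seeing the data, Smo rose to 15.3 RPKM and passed Gli3 (12.9), and Sufu (9.46) passed Ptch1 (8.99) with FGF2. Without FGF2 Smo (13.6) then stood above Boc (11.6). Among the co-receptors, Gas1 (17.5 ± 0.52 RPKM) stood beside Boc (17.0 ± 0.30) with FGF2, while without it Gas1 (7.90 ± 0.61) was below both Boc (11.6 ± 1.15) and Cdon (11.2 ± 1.06).

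**Figure D2:**
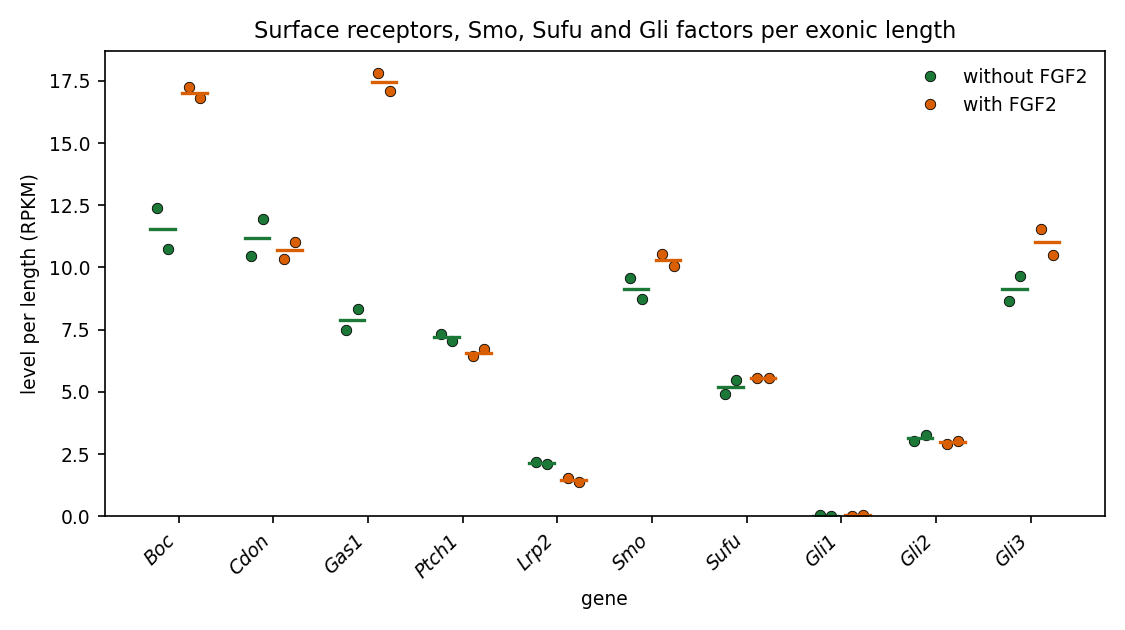
Level per exonic length in RPKM (vertical axis, linear) of the surface receptors, Smo, Sufu and the Gli factors (horizontal axis), with 1 point per library and a line at the mean of each group of 2. Boc and Gas1 lie at 16.8 to 17.8 RPKM with FGF2, and Cdon lies at 10.4 to 11.9 RPKM in all 4 libraries.

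Beyond the 9 genes, 42 other genes of the pathway were followed in 5 roles, and 37 passed the filter. Of these, 8 were called higher with FGF2 and 10 lower, or 48.6%, beside the background of 40.5% (20.7% higher and 19.9% lower). The lower calls include a target gene, given below, that passed the filter only through the libraries without FGF2. For this reason nothing is read from the number of lower calls or from the total beside the background. The median log2 fold change of the 37 genes was -0.0035. The genes of the list did not move in one direction.

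Among 14 genes that carry the signal from Smo to the Gli proteins, 2 were called higher and 5 lower, or 50% in all, beside the background of 40.5%. Kif7, a kinesin that organises the tip of the cilium and controls Gli processing, measured 12.9 and 13.6 CPM with FGF2 and 7.88 and 9.40 CPM without (log2 fold change 0.61 ± 0.18 SE, edgeR adjusted p = 0.00292). Its exons share 877 bases with the antisense gene 9330171B17Rik, which had 4 counts or fewer in each library. Evc2, which acts beside Smo at the base of the cilium, measured 19.4 and 15.2 CPM with FGF2 and 12.2 and 12.8 CPM without (0.46 ± 0.16, edgeR adjusted p = 0.0103). Both calls were lost without no FGF2 1 (Kif7 0.49, edgeR adjusted p = 0.0883, and Evc2 0.43, 0.0864), and that of Evc2 also without FGF2 1 (0.28, 0.258).

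The largest falls in this role were those of Prkacb and Prkaca. Prkacb and Prkaca encode catalytic subunits of protein kinase A, which phosphorylates Gli proteins and favours their repressor form. Prkacb fell from 338.0 and 337.9 CPM to 260.3 and 280.9 CPM with FGF2 (-0.32 ± 0.04, edgeR adjusted p = 1.09e-12), and Prkaca from 143.2 and 135.6 CPM to 114.6 and 111.6 CPM (-0.30 ± 0.06, edgeR adjusted p = 3.19e-06). The other 3, named after their values were seen, were Gsk3b (-0.19), Csnk1a1 (-0.17) and Grk2 (-0.19). Gsk3b and Csnk1a1 act on Gli proteins after protein kinase A, and Grk2 phosphorylates Smo. These kinases have many substrates outside the pathway.

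Of 8 genes needed for the primary cilium, 2 were called higher and none lower, or 25.0%, beside the background of 40.5%. Dync2h1, the heavy chain of the motor that carries cargo back from the ciliary tip, measured 125.5 and 127.2 CPM with FGF2 and 101.5 and 97.5 CPM without (0.35 ± 0.06, edgeR adjusted p = 2.94e-07). Ift172, part of the transport particle, measured 108.5 and 95.5 CPM against 87.7 and 89.4 CPM (0.20 ± 0.07, edgeR adjusted p = 0.00877). The call of Ift172 was lost without FGF2 1 (0.11, edgeR adjusted p = 0.309), without no FGF2 1 (0.19, 0.0979) and without no FGF2 2 (0.22, 0.0532). Of 4 ependymal markers, which mark cells with motile cilia, none was called higher and 2 were called lower, and their summed level was 164 to 180 CPM with FGF2 and 173 to 179 CPM without.

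Of 9 genes known as targets of Shh in other tissues, 6 passed the filter, and they split, with 2 called higher and 3 lower (83.3% called, beside 40.5%, with Nkx2-1 counted). Nkx2-2, a ventral patterning factor that also marks oligodendrocyte precursors, measured 31.0 and 28.9 CPM with FGF2 and 5.51 and 6.26 CPM without (2.34 ± 0.16, 5.07-fold, edgeR adjusted p = 1.96e-46). The antisense gene Nkx2-2os, which shares 278 of its exonic bases, had 15 and 15 counts in the FGF2 libraries and 5 and 2 in the others. Olig2, the factor of motor neuron and oligodendrocyte precursors, measured 94.1 and 90.7 CPM with FGF2 and 45.6 and 44.4 CPM without (1.04 ± 0.08, 2.05-fold, edgeR adjusted p = 2.63e-37).

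Mycn, which drives the growth of progenitors, fell from 23.3 and 23.7 CPM to 14.1 and 14.5 CPM with FGF2 (-0.72 ± 0.14, edgeR adjusted p = 2.30e-06). Nkx2-1, the factor of the medial ganglionic eminence and a Shh target there, had 5 and 6 counts in the FGF2 libraries and 18 and 25 in the others (-1.77 ± 0.58, edgeR adjusted p = 0.00697). It passed the filter only through the libraries without FGF2, and its call was lost without no FGF2 2 (-1.54, edgeR adjusted p = 0.0850). Ccnd1, named after its values were seen, fell by 0.28 on the log2 scale, and it shares 1100 exonic bases with an opposite-strand gene. Foxf1, Foxa2 and Nkx6-1 had at most 4 counts in every library.

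**Figure D3:**
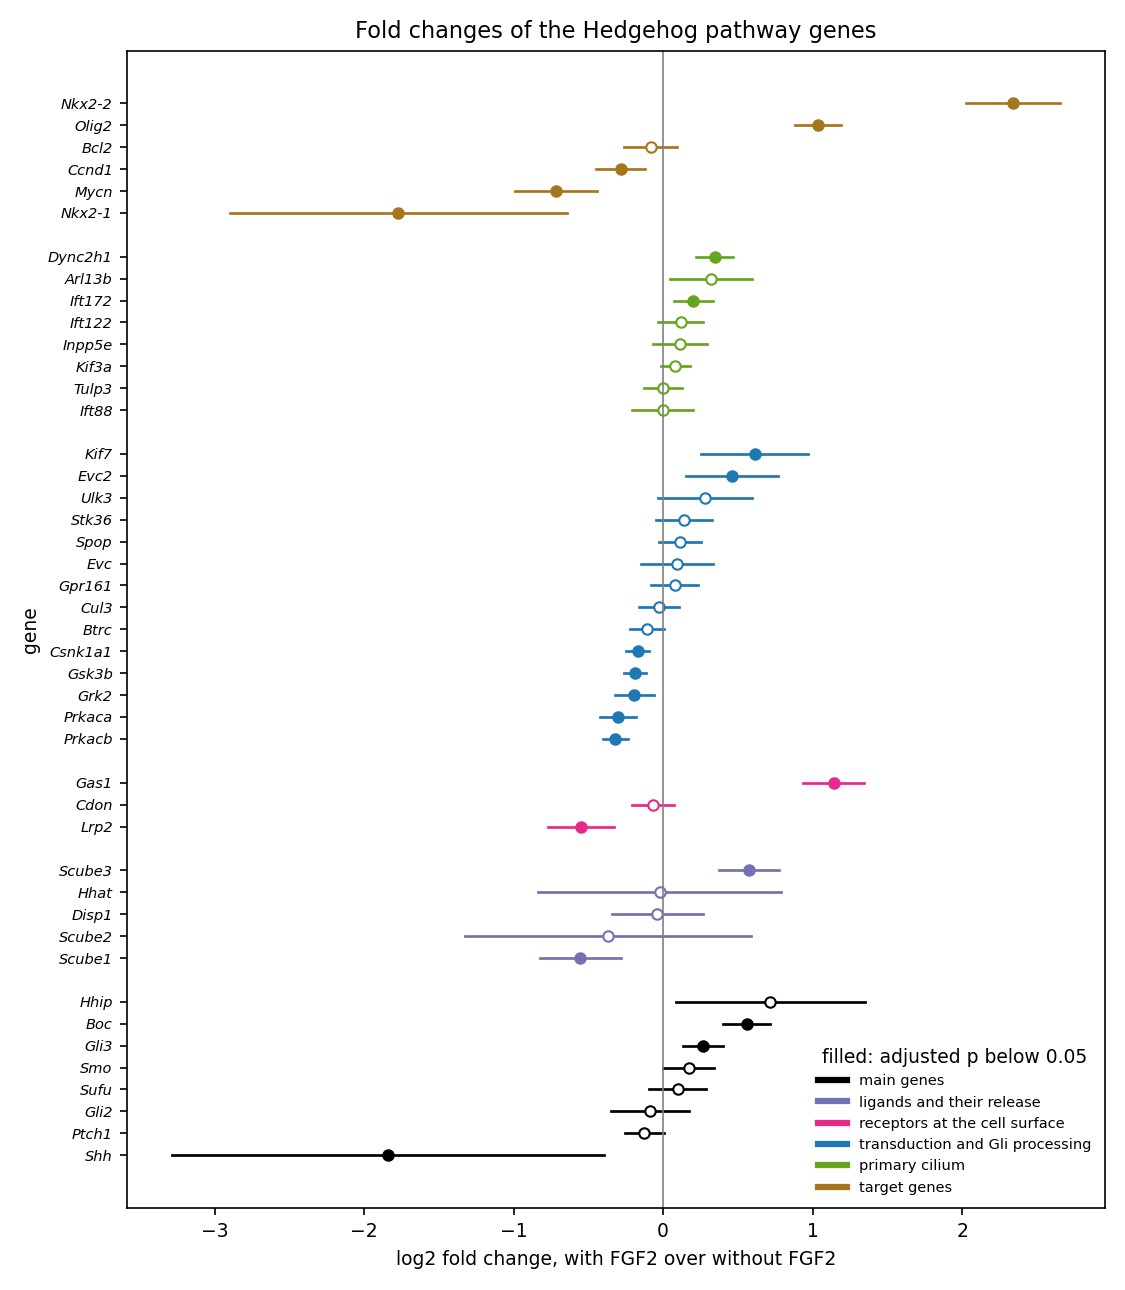
Log2 fold change with FGF2 over without FGF2 (horizontal axis) of the 8 main genes and of other pathway genes tested (vertical axis, grouped by role), with 95% intervals not adjusted for the number of genes and filled points for an edgeR adjusted p below 0.05. Values of the cilium genes run from -0.0035 to 0.35, and the target genes span from -1.77 for Nkx2-1 to 2.34 for Nkx2-2.

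Lists of cell type markers were followed in the same libraries, and some moved in one direction while others were mixed. All counts of calls in the marker lists stand beside the background of 40.5% of genes called, 20.7% higher and 19.9% lower with FGF2. The cortical marker Tbr1 was present in every library, at 21.9 and 20.5 CPM with FGF2 and 44.0 and 44.8 CPM without (log2 fold change -1.07, edgeR adjusted p = 2.16e-20). All 6 neuron markers and all 6 inhibitory neuron markers were called lower with FGF2, with summed levels of 2662 to 2698 against 3678 to 3702 CPM and of 624 to 639 against 1047 to 1069 CPM. All 6 astrocyte markers were called higher (11723 to 11823 against 7015 to 7070 CPM). The 5 tested markers of the oligodendrocyte lineage were called higher (1335 to 1346 against 368 to 378 CPM), Sox10 by 2.41 on the log2 scale, and Mog, the marker of mature cells, had at most 4 counts. In bulk RNA, fewer cells of a type cannot be told apart from less RNA per cell.

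Boc, Gli3, Gas1, Olig2 and Nkx2-2 were higher in the same libraries as the astrocyte and oligodendrocyte lists. Mycn and Ccnd1 were lower together with the proliferation list, in which 5 of 6 genes were called lower (191 to 194 against 254 to 256 CPM). Any gene called higher or lower with FGF2 would pair with the lists of its direction in this way, so these pairings are descriptions only. The part of the cell mixture in these results was not tested. Microglial markers were near the limit, at 10.0 to 11.1 CPM summed against 4.42 to 4.56, and 2 of 6 were tested and called higher. Fibroblast and mural markers summed to 57.7 to 62.2 against 49.0 to 50.5 CPM, with 1 called higher and 2 lower. Endothelial markers summed to at most 7.19 CPM with Cldn5 at 0 counts throughout, and 1 was called lower. Among progenitor markers 2 were called higher and 2 lower (526 to 543 against 602 to 638 CPM), and among excitatory neuron markers 3 of 6 were called lower (206 to 215 against 241 to 253 CPM).

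**Figure D4:**
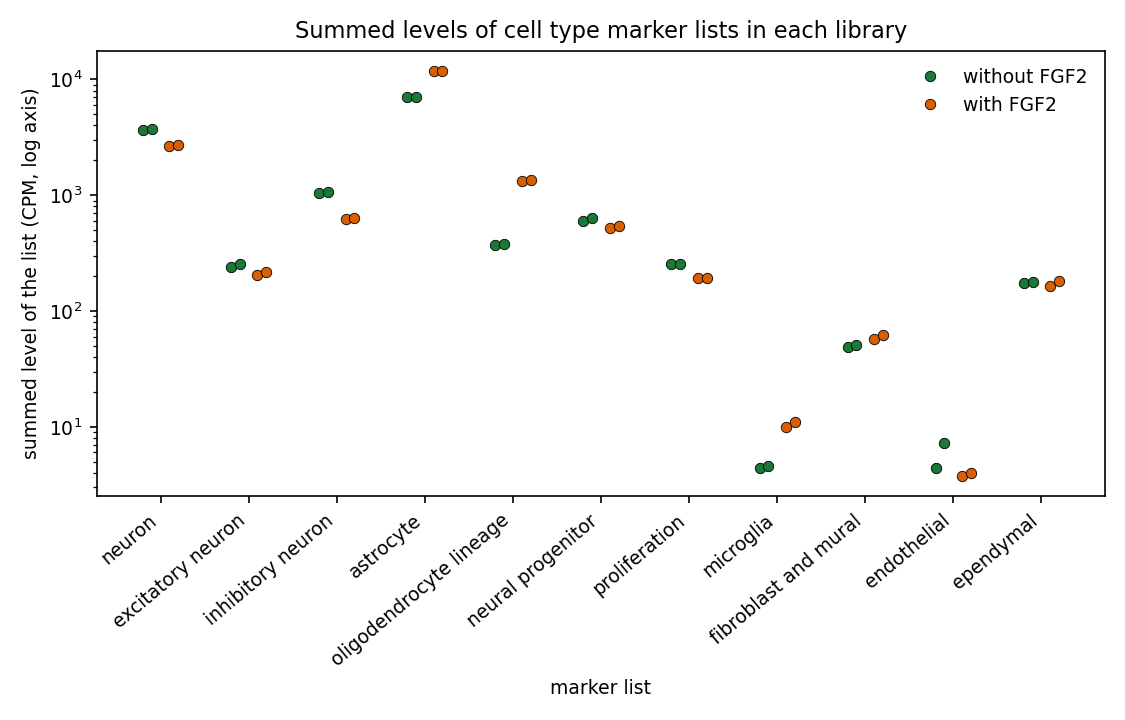
Summed level of each cell type marker list in CPM on a log axis (vertical axis), by list (horizontal axis), with 1 point per library. The oligodendrocyte lineage list lies at 1335 to 1346 CPM with FGF2 and at 368 to 378 CPM without, and the neuron and inhibitory neuron lists lie lower with FGF2.

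Finally, genes with a pattern like that of Ptch1 were looked for by the distance between log2 CPM values centred per gene over the 4 libraries, among 12640 genes with a mean of at least 5 CPM. The nearest were Ppm1f (distance 0.0043), Rtn3 (0.0078) and Ndufa10 (0.011). Ppm1f measured 45.1 and 47.2 CPM with FGF2 and 51.4 and 49.2 CPM without, which follows the same small step as Ptch1. Their log2 fold changes were -0.12 for Ppm1f, -0.12 for Rtn3 and -0.13 for Ndufa10. With 4 libraries a small distance is found for many genes, and it is given as a description only. Rtn3, which is more abundant (790 and 828 against 897 and 864 CPM), was called (edgeR adjusted p = 0.00135), but not without no FGF2 1 (log2 fold change -0.09). Because Rtn3 was picked for values like those of Ptch1, its call says nothing about Ptch1.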

How the data were processed

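Total RNA of cultured P0 mouse PFC was sequenced as 4 libraries. The authors mapped reads to mm10 with HISAT2 2.1.0, filtered them with Samtools at a mapping quality of 20 and counted them per gene with HTSeq 0.11.2, and they deposited raw counts. The annotation release and strand setting are not given in the sources used here. The mapping quality filter removes reads of near-identical copies, so shared stretches may be counted low.

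Of 55421 genes listed, 55154 were matched by identifier to GENCODE M21 (same build), which gave names, coordinates and exonic lengths. A further 5 tally entries were left out, and reads in no feature made up 43.2% to 45.9%. Counts were fitted with edgeR 4.0.16 (quasi-likelihood, R 4.3.3), using TMM factors of 0.992 to 1.01, its expression filter and Benjamini-Hochberg adjustment over 17144 genes, with calls at an adjusted p below 0.05. It was tested on simulated data first. With 2 libraries per group a two-sided exact permutation test cannot go below 0.333, so none was run. Replicates differed by more than sampling noise (chi-square per degree of freedom 2.28 with FGF2 and 1.76 without) and were kept apart. CPM and RPKM were computed here. Stretches of at least 100 bases at 95% identity in other genes were found with BLAST 2.17.0.

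Members and lists were chosen with earlier results of these data known. Named were all 9 members, in each role of the wider list up to 2 called genes per direction with the largest change and at least 1 CPM, ligand and receptor genes with at most 3 counts, the 3 genes most like Ptch1, and at most 2 genes per marker list. The rule also covers genes most like Gli1, which are not given because Gli1 had at most 3 counts. The alternatives were 3 other scalings, 2 other filters, DESeq2 1.42.0, limma-voom (limma 3.58.1), the replicate number as a block, each library left out and a threshold of 0.01. Some genes of the lists are counted but not reported here by name.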

Additional observations from a re-analysis of the deposited data

How the results depend on the processing

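None of the 8 pathway genes and 17 other named genes that were recomputed changed direction under the alternatives, and the other genes given with a value were not recomputed. Among the 8 pathway genes tested, 7 (all except Shh) stayed on their side of the threshold under the other scalings, filters, tools and the block, and 5 (all except Shh, Gli3 and Hhip) with any library left out. The number of pathway genes called lower was 0 without an expression filter, with at least 10 counts in every library (where Shh is not tested), with DESeq2 (which gives Shh no adjusted p) and at a threshold of 0.01, and it ranged from 0 to 1 with 1 library left out. The number called ranged from 1 to 4 and the number called higher from 1 to 3 with 1 library left out. The median log2 fold change of the pathway genes was 0.11 with upper quartile scaling, 0.12 with total count scaling, 0.17 with at least 10 counts in every library, which leaves out Shh, and 0.11 to 0.15 with 1 library left out. DESeq2 called 4007 genes in all (2068 higher and 1939 lower) in place of 6949. Of the wider list it called 5 genes higher in place of 8, and 7 lower in place of 10. Of the named genes recomputed, Kif7 (DESeq2 adjusted p = 0.111), Evc2 (0.193), Ift172 (0.159) and Nkx2-1 (0.127) were no longer called there. Nkx2-1 alone does not account for the loss of lower calls, which also includes genes not recomputed by name. The wider list had 5 to 8 higher calls with 1 library left out. In those fits the lone library is assumed to vary like the other group. Same-numbered libraries showed no shared deviation (correlation 1.3e-05). This does not settle whether they were prepared as pairs, which the labels do not say. A fit with the replicate block called 3 pathway genes, 18 genes of the wider list and 6814 genes in all, so it changed no call of a pathway gene. Depth limits Shh, Hhip, Gli1, Ihh, Dhh and Nkx2-1, whose counts were 55 or fewer in each library.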
